A study of Mus musculus with 4 samples.

Results

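Natural killer (NK) cells of mouse pancreatic ductal adenocarcinoma (PDAC) were taken from 4 single-cell RNA libraries (10x Genomics droplets), 1 library per group. Members were chosen by measured values: a barcode was called an NK cell by its raw counts of unique molecular identifiers (UMIs, 1 per captured RNA molecule), with at least 2 UMIs over Ncr1, Klrb1c and Klre1 together, no UMI of the T cell receptor complex genes Cd3d and Cd3e, and at most 1 UMI over the macrophage complement genes C1qa, C1qb and C1qc. It also had to hold at least 500 UMIs, 300 detected genes and at most 20% mitochondrial UMIs. Of 45685 barcodes that met these quality limits, out of 56375 deposited, 1053 were NK cells. They numbered 80 of 16033 in PH, 703 of 14022 in G, 14 of 4579 in GPH and 256 of 11051 in control. PH tumours came from mice given paricalcitol, a vitamin D receptor agonist, and hydroxychloroquine, which blocks the last step of autophagy in lysosomes. G tumours came from mice given gemcitabine, a cytidine analogue whose insertion blocks DNA replication. GPH stands for all 3 drugs, and was taken from the sample title, since its treatment label breaks off after gemcitabine at 60 mg/kg. Control mice received PBS. Each library pooled tumour pieces of 3 animals, so the spread between animals cannot be seen, no test was run, and the 95% intervals below cover counting error only. Strain, age and sex of the mice, and how the tumours were made, were not given in the sources used here.

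NK cells are innate lymphocytes that kill stressed or transformed cells by releasing granules of perforin, which opens the target membrane, and granzymes, which enter through it. Activating receptors such as NKp46 (Ncr1) and NK1.1 (Klrb1c) and inhibitory receptors for MHC class I together set whether an NK cell fires. NK cells also secrete chemokines, among them Ccl5 and Xcl1, that draw T cells and dendritic cells into tumours.

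The 3 genes of the rule were each found in most or many members. Klre1, a lectin-like NK receptor, had a UMI in 82.5% of NK cells in PH, 90.2% in G, 92.9% in GPH and 94.9% in control, Klrb1c in 68.8%, 63.4%, 71.4% and 73.4% in the same order of libraries, and Ncr1 in 33.8%, 39.0%, 42.9% and 54.3%. These shares follow from the rule and are given as a description. Gzma, the granzyme A gene, is an NK marker that the rule did not use, and 76.3% of NK cells in PH, 56.6% in G, 64.3% in GPH and 73.0% in control held a UMI of it. Among barcodes with none of the 3 rule genes that otherwise met the rule, Gzma was found in 2.14% of PH, 3.63% of G, 0.182% of GPH and 1.73% of control. Barcodes just outside the limit, with exactly 1 UMI over the 3 genes, numbered 113 in PH, 346 in G, 22 in GPH and 137 in control, and 23.9%, 39.6%, 13.6% and 32.8% of them held Gzma. Barcodes just inside it, with exactly 2 UMIs, numbered 34, 230, 3 and 45, with Gzma in 79.4%, 54.8%, 100% and 60.0%. The limits on Cd3d and Cd3e left out a further 60, 522, 10 and 73 barcodes, and those on C1q 0, 33, 0 and 6. No barcode was an NK cell in more than 1 library, although each pair of libraries shared 17 to 79 barcode sequences.

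Some NK barcodes also carried transcripts of tumour cells. At least 2 UMIs over Cdkn2a, Krt7, Krt8, Krt18 and Krt19, a cell cycle inhibitor gene and 4 epithelial keratin genes, were found in 15 of 80 NK cells in PH, 53 of 703 in G, 8 of 14 in GPH and 56 of 256 in control. Outside GPH those barcodes were deep, with a median of 15877 UMIs in PH, 11596 in G, 4928 in GPH and 18113.5 in control, and they held 50.5%, 18.0%, 52.7% and 49.9% of the NK UMIs of their library. At the same time, 12 of the 15 in PH, 25 of the 53 in G and 46 of the 56 in control were among the highest doublet scores of their library (0 of the 8 in GPH). A stricter set was therefore drawn after this was seen, with at most 1 UMI of these 5 genes and at most 2 UMIs over 10 macrophage markers. It held 63 NK cells in PH, 626 in G, 6 in GPH and 200 in control, and they are called filtered NK cells below. Their median depth was 3767, 4768, 6445 and 5608 UMIs, against 4322, 4951, 5445.5 and 6412.5 UMIs in all NK cells. The limits remove deep barcodes more often than shallow ones, so levels are given for filtered cells and, where the ratio differs, for all NK cells beside them.

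**Figure D1:**
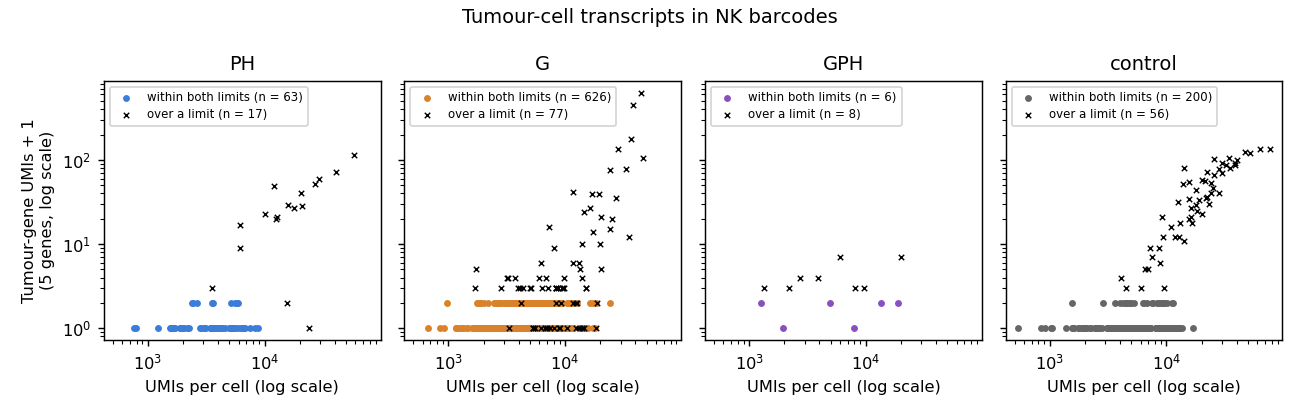
Each point is 1 NK cell, by its UMIs (x, log scale) and its UMIs over 5 tumour-cell genes plus 1 (y, log scale), in PH, G, GPH and control. Crosses are cells over the limit on tumour or macrophage UMIs, and 17 of 80, 77 of 703, 8 of 14 and 56 of 256 NK cells lie there, mostly at high depth.

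As a share of all kept barcodes, NK cells made up 0.499% of PH (95% exact binomial interval 0.396 to 0.621), 5.01% of G (4.66 to 5.39), 0.306% of GPH (0.167 to 0.512) and 2.32% of control (2.04 to 2.61). The G library held the largest share and the PH and GPH libraries the smallest, and these 3 intervals do not reach that of control. The order changed when only barcodes with a UMI of Ptprc, the pan-leukocyte gene for CD45, were counted. Of those, NK cells were 5.92% in PH (4.70 to 7.35), 8.002% in G (7.43 to 8.60), 7% in GPH (3.88 to 11.5) and 17.6% in control (15.6 to 19.7), so control then stood above all 3 treated libraries. The leukocyte total differed widely, with 1300 Ptprc-positive barcodes in PH, 8398 in G, 200 in GPH and 1373 in control. Filtered NK cells gave 4.77%, 7.13%, 3% and 13.8% of Ptprc-positive barcodes. With every barcode thinned to 1500 UMIs before the rule was applied, the shares of Ptprc-positive barcodes were 4.37%, 4.10%, 4.598% and 12.9%. These are shares of captured barcodes, and the share of NK cells in the tumours was not measured.

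**Figure D2:**
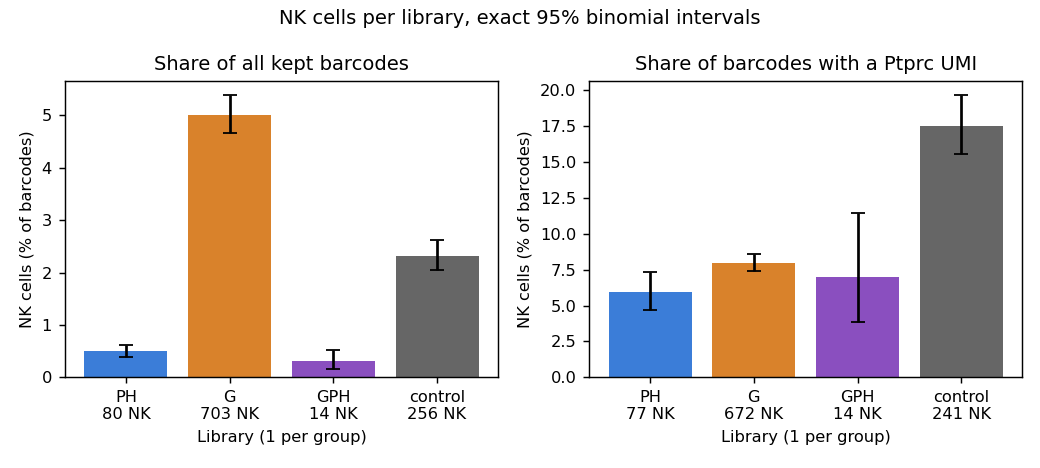
Bars give NK cells as a percentage of all kept barcodes (left) and of barcodes with a UMI of Ptprc (right) in the PH, G, GPH and control libraries, with exact 95% binomial intervals. G is highest at left with 5.01%, and control is highest at right with 17.6%.

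Levels below are in CPM, counts per 1e+06 UMIs, here of all UMIs of that library's NK cells. In filtered NK cells 12 genes of an NK marker list, leaving out the 3 of the rule, summed to 14134 CPM in PH, 9550.2 in G, 8312 in GPH and 13939 in control, against 24.6, 107, 2.98 and 27.5 CPM in barcodes with at least 5 Vim UMIs and none of Ptprc, which should lack them. T cells under the same limits (at least 2 UMIs of Cd3d and Cd3e, none of the 3 rule genes, at least 1 of Ptprc), called filtered T cells, had 3638, 2011, 3971 and 3307 CPM. An 11-gene T cell list ran the other way, with 104, 157, 103 and 121 CPM in filtered NK cells and 4462, 3334, 4980 and 5391 CPM in filtered T cells, where Cd3d and Cd3e were used to choose both classes. Of all NK cells, 67 of 80 in PH, 514 of 703 in G, 11 of 14 in GPH and 203 of 256 in control also lacked Cd3g and Trac. Macrophage markers summed to 8.02 CPM in filtered NK cells of PH, 63.5 in G, 20.7 in GPH and 4.11 in control, with 8, 1, 9 and 7 of the 10 genes at 0. The filter itself limits these 10 genes, so low sums follow from it, and over all NK cells they were 240, 359, 9.79 and 19.3 CPM. In filtered NK cells, dendritic cell markers summed to 56.2, 164, 352 and 13.2 CPM, and neutrophil markers to 4.01, 135, 0 and 1.64 CPM. G was thus the library in which genes of other leukocytes reached the highest sums in filtered NK cells, apart from the dendritic list in the 6 cells of GPH.

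Markers of the relatives of NK cells were also read. A list of 11 genes of type 2 and type 3 innate lymphoid cells summed to 76.2 CPM in filtered NK cells of PH, 80.1 in G, 41.4 in GPH and 63.3 in control. A list of 16 genes of type 1 innate lymphoid cells and tissue residency summed to 1925, 1690, 2026 and 1529 CPM in the same order. Filtered T cells had 2594, 1588, 4838 and 2624 CPM of it, and barcodes with Vim and no Ptprc 856, 577, 595 and 950 CPM. After each cell was thinned to 1500 UMIs, Eomes, a transcription factor of NK cells, was found in 16.7% of filtered NK cells in PH, 18.6% in G and 16.0% in control. Cxcr6, a tissue residency receptor, was found in 0 of 60 cells in PH, which allows a share of up to 5.00%, in 2.77% of cells in G and in 1.55% in control. Cd27, of less mature NK cells, was at 10.0% in PH, 17.1% in G and 9.28% in control, and Klrg1, of mature ones, at 10.0%, 3.43% and 7.73%. In barcodes with Vim and no Ptprc these 4 genes were each in under 1% of cells, at most 0.860% (Cd27 in control). Il7r, the interleukin 7 receptor of most other innate lymphoid cells, was in 0.979% of NK cells in G, close to the background of 0.913% there, in 1 of 60 cells in PH and in 0 of 194 in control, which allows up to 1.55%. Itga1, also of the type 1 and residency list, was in 8.33% of thinned filtered NK cells in PH, 10.6% in G and 11.9% in control. Type 1 innate lymphoid cells were not separated from NK cells here.

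PH against control asked how NK cells differed when paricalcitol and hydroxychloroquine were given without chemotherapy. In filtered NK cells of PH, the chemokine gene Ccl5, the survival genes Bcl2a1b and Bcl2a1d and the cytokine brake Cish stood higher than in control. So did 8 of 18 NF-kappaB genes, a list that also holds Bcl2a1b and Bcl2a1d. Gzmc stood lower, as did 15 of 17 measured mitosis genes, 9 of 10 of cholesterol synthesis and 9 of 13 interferon genes. In these lists, in the same order, the intervals of 12, 3 and 4 genes lay below 0. Of 4604 genes measured there (20 CPM or more in PH or control, with 20 or more UMIs in both together), 631 or 13.7% were at least 1.5-fold higher and 1157 or 25.1% at least 1.5-fold lower, with a median log2 ratio of -0.13 over all of them. Over all NK cells, 19.8% of 5065 genes were higher and 14.3% lower, with a median of 0.05. The filtered cells of PH held 249329 UMIs, against 1216247 in control, so that 1 UMI in PH was worth about 4.01 CPM. Low genes were therefore counted coarsely in PH. With far fewer UMIs in PH, the limit of 20 UMIs in both together is met more easily by a low gene that is higher in control. The counts by list are to be read beside these background shares.

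Of the killing genes, Gzma stood at 6678 CPM in filtered NK cells of PH, against 5219 in control, a log2 ratio of 0.36. Gzmb, the granzyme that activates caspases, was at 963 CPM in PH, against 1510 in control (log2 ratio -0.65), and Prf1, perforin, at 345 and 469 CPM (-0.44). Gzmc (ENSMUSG00000079186, mm10 chromosome 14, 56231441 to 56234656), a granzyme gene of strongly activated mouse lymphocytes, was at 1155 CPM in 16 of 63 cells of PH, against 4024 CPM in 123 of 200 cells of control. Its log2 ratio was -1.80 (interval -1.98 to -1.63) in filtered and -2.40 in all NK cells, while in filtered T cells it was -0.25. Serpinb9 and Serpinb6b, inhibitors that protect the killer from its own granzymes, were at 606 and 602 CPM in PH and 390 and 348 CPM in control. Over the 23-gene granule list, 3 of 17 measured genes were at least 1.5-fold higher and 4 lower, with a median of -0.08, near the median of all genes.

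Ccl5 (ENSMUSG00000035042, chromosome 11, 83525778 to 83530518) was at 8005 CPM in filtered NK cells of PH, against 3410 in control, a log2 ratio of 1.23 (1.15 to 1.31). Its ratio was 1.02 over all NK cells and 0.36 in filtered T cells. In G, which shares this control, the Ccl5 ratio changed sign when every cell was weighted alike. The interval in PH does not cover that choice of weights. After thinning to 1500 UMIs, Ccl5 was found in 71.7% of filtered NK cells in PH and 50.0% in control. Ccl4 was at 357 CPM in PH, against 192 in control. As an alternative, cells with at least 2 UMIs of S phase or mitosis genes, counted without thinning, were removed as cycling cells. Deep cells reach that count more easily, and 20 of 63 filtered cells were left in PH and 41 of 200 in control. In those few cells the Ccl4 ratio turned to -0.13, and a link to the cell cycle was not tested. Xcl1, which attracts cross-presenting dendritic cells, was at 1023 CPM in PH, against 1555 in control (-0.60).

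Of 8 measured BCL2 family genes, which set cell survival, 2 were at least 1.5-fold higher in filtered NK cells of PH and 0 lower (median 0.03). These were Bcl2a1d and Bcl2a1b. Bcl2a1d (ENSMUSG00000099974, chromosome 9, 88723285 to 88731914) was at 261 CPM in PH, against 65.0 in control (log2 ratio 2.005, interval 1.51 to 2.50), and Bcl2a1b at 397 and 132 CPM (1.58). These encode copies of the anti-apoptotic protein A1 that are nearly identical, so reads could have been split between them. In filtered T cells their ratios were 0.88 and 0.53. Of the 18 NF-kappaB genes, all measured, 8 were at least 1.5-fold higher and 0 lower, with a median of 0.53. Bcl2a1d and Bcl2a1b belong to this list too and are among the 8. Rel, an NF-kappaB subunit, was at 309 CPM in PH, against 139 in control, and Nfkbiz, which steers NF-kappaB in the nucleus, at 112 and 37.8 CPM. Nfkbia, the inhibitor that NF-kappaB induces, was at 197 and 253 CPM, a ratio of -0.37 in filtered cells and 0.78 in all NK cells. In filtered T cells the list's median was 0.27.

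Cish, a STAT5-induced brake on cytokine signalling in NK cells, was at 136 CPM in PH, against 40.3 in control (log2 ratio 1.76, interval 1.08 to 2.42). The homing receptor Cxcr4 was at 124 and 40.3 CPM (1.63), the integrin gene Itga4 at 144 and 76.5 CPM (0.92), and the adhesion gene Cd44 at 148 and 75.6 CPM (0.97). Of 19 measured transcription factors, 8 were at least 1.5-fold higher and 5 lower (median 0.51). Klf4 was at 104 CPM in PH, against 34.5 in control (1.59), Id2, which commits innate lymphocytes, at 1167 and 676 CPM (0.79), and Tbx21, which encodes T-bet, at 20.1 and 49.3 CPM (-1.30, interval -2.97 to 0.00).

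Among mitosis genes, 15 of the 17 measured in filtered NK cells of PH were lower by 1.5-fold or more and 0 higher (median -1.08), where the background share of lower genes was 25.1%. Top2a, which untangles DNA, was at 44.1 CPM in 8 cells of PH and 149 CPM in 47 cells of control (-1.75). Birc5 (survivin) was at 16.0 CPM in 3 cells and 92.1 CPM in 29 cells, and Ube2c, which drives exit from mitosis, at 4.01 CPM in 1 cell and 83.0 CPM in 26 cells. Over all NK cells the median was -0.26, with 4 of 20 lower and 1 higher, and it was -0.02 in filtered T cells. S phase genes showed a median of -0.21, with 5 of 14 lower. After thinning to 1500 UMIs, 11.7% of filtered NK cells in PH (4.82 to 22.6) and 22.7% in control (17.0 to 29.2) had at least 2 UMIs of mitosis genes, and these intervals overlap. Over all NK cells, before the limits on tumour and macrophage UMIs, the shares were 20.8% in PH and 21.6% in control.

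Of the metabolic lists, cholesterol synthesis stood lowest, with 9 of 10 measured genes at least 1.5-fold lower in filtered NK cells of PH and a median of -1.62. Only 3 of the 10 had an interval below 0. Hmgcs1, a synthase early in the pathway, was at 8.02 CPM in PH and 40.3 CPM in control, and Cyp51, a demethylase late in it, at 16.0 CPM in PH and 62.5 CPM in control. These rest on 2 and 4 UMIs in PH, and over all NK cells the list's median was 0.20 with 0 of 12 genes past 1.5-fold, so the direction was not kept outside the filtered set. Glycolysis and hypoxia genes had a median of -0.49 in filtered cells and -0.45 in all NK cells, with 5 of 15 and 8 of 19 genes lower. The glycolytic enzyme genes Tpi1, Pgam1 and Aldoa were at 68.2, 80.2 and 184 CPM in PH and 214, 200 and 416 CPM in control. In filtered T cells the glycolysis and hypoxia median was -0.35, with 7 of 17 genes lower and 1 higher. Cholesterol synthesis was at -0.53 there, with 4 of 9 lower and 0 higher. In barcodes with Vim and no Ptprc, glycolysis and hypoxia genes summed to 6151 CPM in PH and 9157 in control. The lower glycolysis and hypoxia level was thus not confined to NK cells.

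Of 13 interferon genes measured in filtered cells of PH, 9 were at least 1.5-fold lower and 1 higher (median -0.83), and over all NK cells 7 of 15 were lower and 0 higher (-0.48). In filtered cells 4 of the 13 had an interval below 0 and 0 had one above it. Isg15, a ubiquitin-like protein, was at 8.02 CPM in PH, against 32.1 in control, and Bst2, a viral tether, at 28.1 and 60.8 CPM. Psmb9, an immunoproteasome subunit induced by interferon, was at 76.2 and 198 CPM (-1.38), and Psmb8 at 341 and 615 CPM (-0.85). The interferon median in filtered T cells was -0.14, with 1 of 19 genes higher and 5 lower, where 12.3% of all genes were higher and 14.6% lower.

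Lists close to what the drugs of PH act on were read as well. The lysosome median was -0.30 in filtered NK cells, where 5 of 22 genes were lower and 1 higher, and 0.01 in all NK cells. The autophagy list, with 2 of 14 higher and 3 lower, had its median at -0.14, and Map1lc3b, which encodes the autophagosome protein LC3B, was at 213 CPM in PH, against 248 in control. For ER chaperones the median was -0.47, and 7 of 21 genes were lower, among them Pdia6 at 84.2 and 197 CPM, and 0 higher. In filtered T cells the ER chaperone median was -0.30, with 3 of 20 genes lower and 1 higher. Of all genes measured in filtered NK cells, 25.1% were lower and 13.7% higher. The lysosome count of lower genes and both autophagy counts lay near these shares. For the vitamin D receptor, Vdr had 0 UMIs in the 63 filtered NK cells of PH, which allows up to 12.03 CPM, and 2 UMIs in all 80, and its target Cyp24a1 had 0. No vitamin D response could be read at this depth.

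By a rule on size (at least 50 CPM, ranked by the interval bound nearest to 0, 12 genes each way, without genes far higher in another cell class), the genes named for filtered NK cells of PH included Bcl2a1d, Hspb1, Qrfp, Bcl2a1b, Ccl5, Cish, Sytl3, Dusp1, Cxcr4, Kdm6b and Rnf157 on the higher side. Sytl3, a synaptotagmin-like protein of vesicle traffic, was at 397 CPM in PH, against 153 in control, Kdm6b, a histone demethylase, at 401 and 169 CPM, and Dusp1, which switches off MAP kinases, at 176 and 60.0 CPM. The 56.2 CPM of Hspb1 came from 1 cell. On the lower side were Ube2c, Spc24, Nmt1, Gzmc, Cks1b, Cdk2ap1, Tubb5, Birc5, Pclaf, Tuba1b, Cnot3 and Tpi1, of which Ube2c, Spc24, Cks1b, Tubb5, Birc5 and Pclaf are genes of DNA replication or mitosis. When the rule ran over all NK cells, the higher genes were led by genes of macrophages, among them Ccl12, Arg1, Cxcl9 and Ccl2. Of the 12, Ccl2, Klf4 and Bcl2a1d, 3 in all, kept 1.5-fold in filtered cells, while the other 9 were under the measuring limit there. Ccl2 had a log2 ratio of 2.85 in all and 6.64 in filtered NK cells, so the filter did not remove it, and its source was not tested. Of the 12 lower ones, 9 kept 1.5-fold, 2 were under that limit and Cd74 stood higher (0.88).

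Nmt1 stood lower in PH and G than in control in both NK and T cells, so that difference was not particular to NK cells. In filtered NK cells Nmt1, an N-myristoyltransferase gene, was at 20.1 CPM in PH and 26.9 in G, against 186 in GPH and 162 in control, and in filtered T cells at 34.0, 36.2, 221 and 141 CPM in the same order. The GPH values rest on 6 filtered NK cells with 48364 UMIs and 16 filtered T cells with 63455 UMIs. The source of the difference was not tested.

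**Figure D3:**
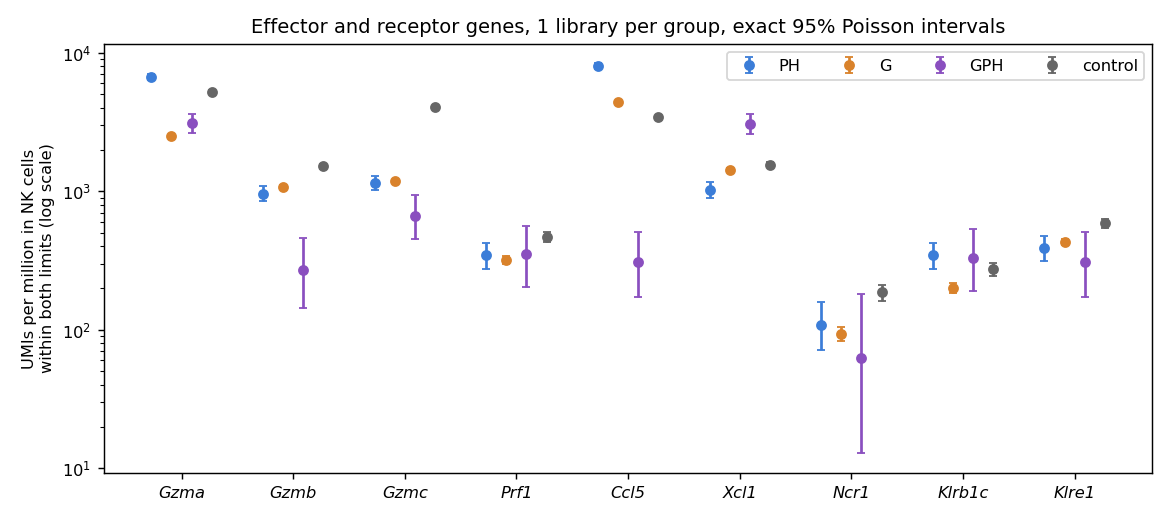
Levels of 9 effector and receptor genes in filtered NK cells, in CPM on a log scale, for PH, G, GPH and control, with exact 95% Poisson intervals of the UMI counts. Gzmc stands at 1155 CPM in PH and 1176 CPM in G, below the 4024 CPM of control, and the wide intervals of GPH come from its 6 cells.

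G against control asked how NK cells differed after gemcitabine alone. In filtered NK cells of G, the granzyme genes Gzma and Gzmc and the receptor gene Klrb1f stood lower than in control, as did 9 of 17 measured mitosis genes and the quiescence genes Btg1 and Klf2. The cytokine receptor gene Il21r, the transcription factors Crem and Nr4a3, and the type I interferon genes Ifit1, Oasl1, Rsad2 and Isg15 stood higher. Of 4617 measured genes, 14.1% were at least 1.5-fold higher and 12.2% lower, with a median of -0.01. Over all NK cells 18.9% of 4973 genes were higher and 19.4% lower, and the genes named as lower there were mostly tumour and stroma genes, such as Scx, Pcolce and Cdkn2a. Of those 12, 1 kept 1.5-fold in filtered cells and 11 were under the measuring limit there.

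Gzma (ENSMUSG00000023132, chromosome 13, 113093825 to 113100981) was at 2491 CPM in filtered NK cells of G and 5219 in control, a log2 ratio of -1.07 (-1.11 to -1.02). Over all NK cells its ratio was -0.66 and in filtered T cells -2.62. Gzmc was at 1176 and 4024 CPM (-1.77, interval -1.84 to -1.71), and its ratio was -1.37 over all NK cells and -0.56 in filtered T cells. Gzmb was at 1070 and 1510 CPM (-0.50) and Prf1 at 319 and 469 CPM (-0.55), yet over all NK cells, where barcodes with tumour transcripts held 18.0% of the UMIs in G and 49.9% in control, the ratios were 0.02 and -0.01. The death ligand gene Fasl stood higher, at 80.1 CPM in G and 43.6 in control (0.88). Gzmc was thus lower than control in both libraries with enough cells to compare, PH and G, which share that control, while Gzma was lower in G and slightly higher in PH.

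Of 17 measured activating receptors and adaptors, 0 were at least 1.5-fold higher in filtered NK cells of G and 4 lower (median -0.43), but over all NK cells 5 were higher and 1 lower (0.12). This list holds Ncr1 and Klrb1c, which were used to choose the cells, so its counts and medians are only a description. Ncr1 is among the 4 lower genes. Ncr1 was at 93.1 CPM in G and 186 in control, Klrb1c at 200 and 274 CPM and Klre1 at 432 and 585 CPM, although these 3 genes were used to choose the cells. Klrb1f, an NK receptor of the same lectin family, was at 44.2 CPM in 120 of 626 cells of G and 141 CPM in 98 of 200 cells of control (log2 ratio -1.67, interval -2.00 to -1.34). Its ratio over all NK cells was -1.09. Inhibitory receptors, a list that holds the rule gene Klre1, had a median of 0.12, with 3 of 17 higher and 1 lower. Tigit was at 27.5 and 13.2 CPM and Lag3 at 30.2 and 60.8 CPM. The Ly49 receptor genes Klra4, Klra7 and Klra8, close copies of each other whose reads may be shared, were at 390, 409 and 422 CPM in G and 358, 579 and 349 CPM in control.

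Cytokine genes and their receptors differed in filtered cells. Of 8 measured cytokine and chemokine genes, 0 were at least 1.5-fold higher and 4 lower (median -0.37), including Ifng, interferon gamma, at 36.9 CPM in G and 69.9 in control, and Ccl3 at 6.05 and 26.3 CPM. Over all NK cells the direction of this list turned, with 3 of 7 genes higher and 0 lower (0.48). Of 21 measured cytokine receptor and STAT genes, 8 were at least 1.5-fold higher and 2 lower (median 0.47), where 14.1% of all genes were higher, and over all NK cells 12 of 20 were higher and 1 lower (0.69). Il21r (ENSMUSG00000030745, chromosome 7, 125603429 to 125633570), the interleukin 21 receptor, was at 172 CPM in 316 of 626 cells of G and 63.3 CPM in 56 of 200 cells of control (1.45, interval 1.10 to 1.81). Stat3, its main signal carrier, was at 551 and 278 CPM (0.99), and Il2rb, shared by the interleukin 2 and 15 receptors, at 900 and 646 CPM (0.48). Il21r in filtered T cells had a ratio of 0.69 and the list a median of -0.12. Ccl5 gave no stable direction in G: 4418 and 3410 CPM gave a ratio of 0.37 in filtered cells. That ratio turned to -0.14 with every cell weighted alike and to -0.40 without cycling cells. Only 123 filtered cells were left in G and 41 in control without cycling cells.

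Interferon genes were split in G. Of 17 measured in filtered NK cells, 7 were at least 1.5-fold higher and 3 lower (median 0.32), in contrast to the median of -0.83 in PH, which shares the control. Ifit1 (ENSMUSG00000034459, chromosome 19, 34640871 to 34650009), which blocks translation of viral RNA, was at 53.5 CPM in 55 cells of G, against 4.93 CPM in 3 cells of control, a log2 ratio of 3.44 (2.29 to 4.91). Oasl1 was at 26.6 and 3.29 CPM, Rsad2 (viperin) at 31.5 and 11.5 CPM, Igtp, an interferon gamma-induced GTPase, at 25.7 and 3.29 CPM, and Isg15 at 94.1 and 32.1 CPM. Xaf1, Ifi203 and Phf11b were the 3 lower genes, with ratios of -0.90, -0.77 and -0.84. In filtered T cells of G, Ifit1 had a ratio of 0.63 and Isg15 of -0.55, and 4 of 20 genes of the list were higher and 7 lower, where 10.8% of all genes were higher and 15.7% lower.

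The promoters of 24 of the 33 listed interferon genes could be read from RefSeq (GRCm38.p6, 250 bases before to 50 bases after the start). The interferon-stimulated response element was searched as TTTC, then NN (any pair of bases), then TTTC, on both strands, with overlapping matches counted. It was found in 4 of 5 promoters of genes higher in G, 3 of 5 of genes between, 1 of 3 of genes lower and 7 of 11 of genes not measured, against 3.49% of 27025 promoters in all. The match thus went with the list as a whole (62.5%), and the number of genes is too small to set the higher ones apart. The promoters of Ifit1 (chr19:34640639-34640938, plus strand) and Isg15 (chr4:156200769-156201068, minus strand) are shown because these 2 had the most UMIs among the higher genes whose promoter could be read, with the matches in capitals, 5′ to 3′.
Ifit1: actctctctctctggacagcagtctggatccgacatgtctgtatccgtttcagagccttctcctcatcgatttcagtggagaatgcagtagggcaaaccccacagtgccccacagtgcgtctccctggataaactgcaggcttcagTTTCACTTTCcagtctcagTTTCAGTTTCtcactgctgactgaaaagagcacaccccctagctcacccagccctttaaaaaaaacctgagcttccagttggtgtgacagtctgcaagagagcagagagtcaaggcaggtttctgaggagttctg
Isg15: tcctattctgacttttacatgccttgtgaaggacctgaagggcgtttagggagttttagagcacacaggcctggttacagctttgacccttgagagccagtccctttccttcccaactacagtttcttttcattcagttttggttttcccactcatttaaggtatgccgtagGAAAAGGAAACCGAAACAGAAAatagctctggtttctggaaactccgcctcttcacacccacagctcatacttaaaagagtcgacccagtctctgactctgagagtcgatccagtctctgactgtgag
Ifit1 holds 2 separate matches, and Isg15 holds 3 that overlap on the other strand.

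In filtered NK cells of G, 9 of the 17 mitosis genes measured were lower by 1.5-fold or more and 0 higher (median -0.69), and over all NK cells 12 of 19 were lower (-0.61). Top2a was at 75.6 CPM in G and 149 in control, Nusap1, a spindle protein, at 32.7 and 65.0 CPM, and Mki67, the proliferation antigen, at 73.5 and 87.2 CPM. The S phase median was 0.01, and 4 of 14 genes were higher and 2 lower. Rrm1, the ribonucleotide reductase subunit that gemcitabine inhibits, was at 48.7 and 28.0 CPM, and Tyms, thymidylate synthase, at 35.1 and 65.8 CPM. In filtered T cells the same lists had medians of 0.14 and 1.07, with 14 of 18 S phase genes higher and 0 lower. The share of filtered NK cells with at least 2 mitosis UMIs at equal depth was 17.6% in G (14.7 to 20.9) and 22.7% in control (17.0 to 29.2). Of 7 p53 targets measured in filtered NK cells, 3 were higher and 0 lower (median 0.51), where 14.1% of all genes were higher. The intervals of 2 of the 7 lay above 0 and that of 1 below it. Over all NK cells 4 of 8 were higher and 2 lower (0.54), and in filtered T cells 0 of 7 passed 1.5-fold (0.01). Cdkn1a, which encodes p21, was at 81.4 CPM in filtered NK cells of G and 51.0 in control.

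By the rule on size, the genes named as higher in filtered NK cells of G included S100a8, Cxcl2, Ifit1, Kcnq1ot1, Myb, Crem, Cxcl10, Rhoq, Cst3, Il21r and Clic4. S100a8, a neutrophil alarmin, was at 65.6 CPM in G and had 0 UMIs in control, at least 26.6-fold higher against a floor of 3 counts. In filtered T cells it was 108-fold higher in G (interval 19.4 to 4272), and the neutrophil marker sum was 276 CPM in filtered T cells of G and 98.1 CPM in barcodes with Vim and no Ptprc, so it was not confined to NK cells, and its source was not tested. The same applies to Cst3, a gene of dendritic cells and macrophages, with a ratio of 1.41 in filtered NK cells and 1.74 in filtered T cells. Crem, a repressor of the cAMP pathway, was at 320 CPM in 444 cells of G and 101 CPM in 77 cells of control (1.66), Myb, a progenitor transcription factor, at 92.8 and 23.02 CPM (2.01), and Nr4a3, a receptor gene induced by stimulation, at 233 and 96.2 CPM (1.28). Crem and Myb had ratios of 1.06 and 1.87 in filtered T cells.

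The genes named as lower were Nmt1, Gzmc, Btg1, Klf2, Cdk2ap1, Klrb1f, Nfkbia, Fos, Ube2m, Tuba1b, Cd69 and Otulin. Btg1, an antiproliferative gene of resting lymphocytes, was at 651 CPM in G and 1835 in control (-1.49), and Klf2, a quiescence factor, at 19.4 and 70.7 CPM (-1.87). Cd69, an early activation and retention marker, was at 26.0 and 74.0 CPM (-1.51), Fos, an immediate early gene, at 42.3 and 128 CPM (-1.60) and Nfkbia at 84.7 and 253 CPM (-1.58). Filtered T cells had ratios of -2.30 for Btg1, -1.58 for Klf2, -2.12 for Cd69, -1.84 for Fos and -1.15 for Nfkbia, so all 5 stood lower in both lymphocyte classes of G. Over the immediate early list, 5 of 19 genes were higher and 6 lower (median -0.16), with Dusp1 among the higher ones at 129 and 60.0 CPM.

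**Figure D4:**
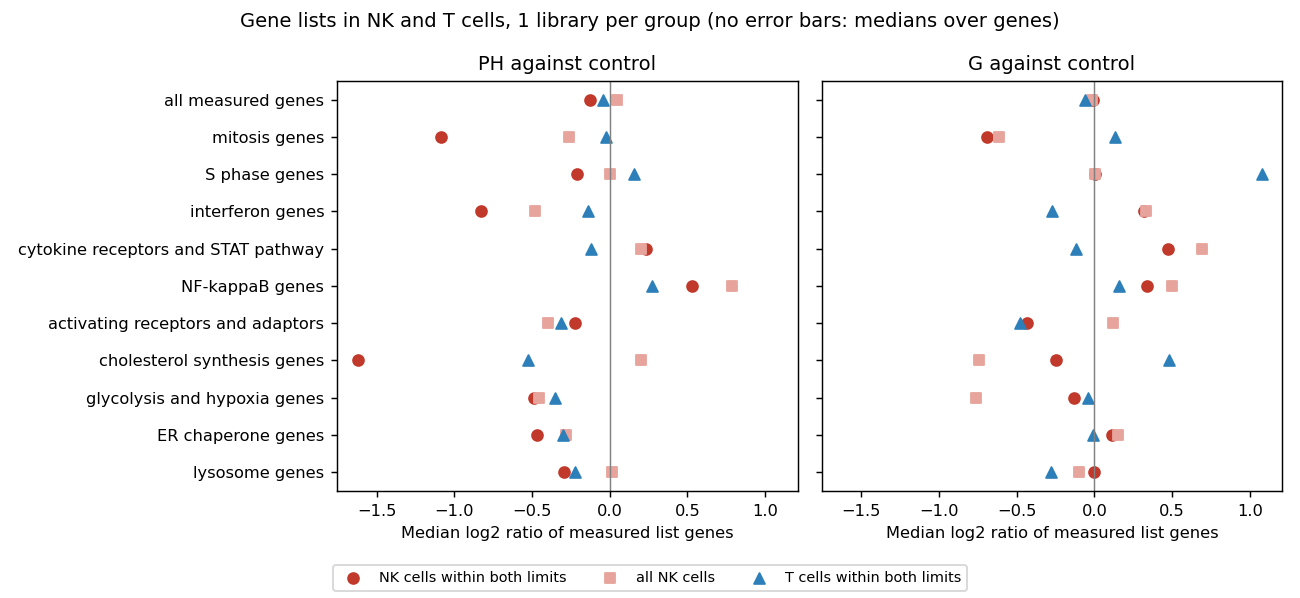
Median log2 ratio over the measured genes of each list, PH against control (left) and G against control (right), in filtered NK cells, within both limits (circles), all NK cells (squares) and filtered T cells (triangles). Mitosis genes lie at -1.08 in PH and -0.69 in G in filtered NK cells, and cholesterol synthesis genes at -1.62 in filtered and 0.20 in all NK cells of PH. The activating receptor list holds Ncr1 and Klrb1c, which were used to choose the cells.

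Shares of cells were compared at equal depth, with each filtered NK cell thinned to 1500 UMIs, which left out 3 of 63 cells in PH, 13 of 626 in G and 6 of 200 in control. Gzmc was found in 18.3% of NK cells in PH (9.52 to 30.4), 24.6% in G (21.3 to 28.2) and 51.0% in control (43.8 to 58.3). Ccl5 was found in 71.7% in PH (58.6 to 82.5), 79.9% in G (76.5 to 83.0) and 50.0% in control (42.8 to 57.2). More cells thus held Ccl5 and fewer held Gzmc in both treated libraries, and neither pair of intervals reached that of control. Gzma was found in 70.0%, 48.5% and 63.9%, and Gzmb in 70.0%, 50.6% and 62.9%, with PH overlapping control and G below it. Over all NK cells Gzmb was found in 47.8% in G (44.0 to 51.6) and 52.8% in control (46.4 to 59.1), and these intervals overlap.

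Crem was found in 26.7% of thinned NK cells in PH (16.1 to 39.7), 38.8% in G (34.9 to 42.8) and 12.9% in control (8.52 to 18.4), so the interval of G lay above that of control and the interval of PH overlapped it. Il21r was found in 6.67% in PH (1.85 to 16.2), 23.3% in G (20.03 to 26.9) and 8.25% in control (4.79 to 13.05), again with G above control and PH overlapping it. Bcl2a1d was found in 31.7% in PH (20.3 to 45.0), 11.9% in G (9.45 to 14.7) and 9.79% in control (6 to 14.9), with PH above control and G overlapping it. Cish was found in 20% in PH (10.8 to 32.3), 9.95% in G (7.70 to 12.6) and 5.15% in control (2.50 to 9.28), so PH lay above control and G overlapped it. Over all NK cells Cish was found in 15.6% in PH (8.32 to 25.6) and 6.4% in control (3.70 to 10.2), and these intervals overlap. Klrb1f was found in 18.3%, 7.34% and 23.2% and Cd69 in 13.3%, 3.26% and 10.8%, and for both the interval of G lay below that of control while that of PH overlapped it. Barcodes with Vim and no Ptprc, thinned to the same depth from medians of 9660.5 UMIs in PH, 13847.5 in G and 11546 in control, held Gzmc in 0.101%, 0.101% and 0% (which allows up to 0.152%), Ccl5 in 5.09%, 7.45% and 1.82%, Crem in 2.01%, 7.71% and 2.07% and Bcl2a1d in 0.755%, 4.46% and 0.152%. The thinned NK cells came from medians of 3955.5, 4798 and 5702 UMIs, and each share above lay over that background. Without thinning, Gzmc had a UMI in 16 of 63, 230 of 626 and 123 of 200 filtered cells and Ccl5 in 55, 566 and 123.

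**Figure D5:**
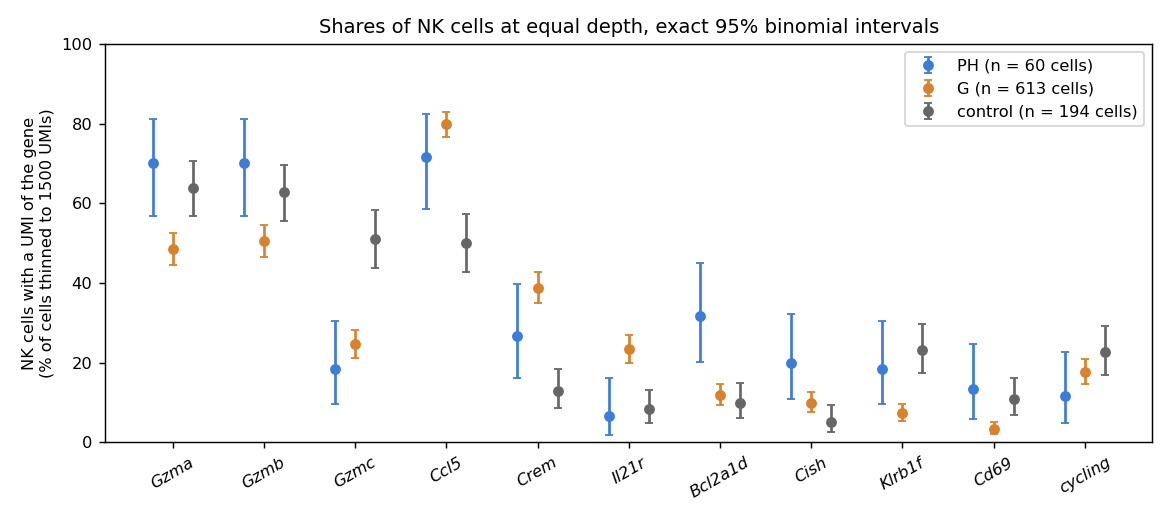
Percentage of filtered NK cells of PH, G and control with at least 1 UMI of each gene after thinning to 1500 UMIs, with exact 95% binomial intervals; cycling means at least 2 UMIs of mitosis genes. Gzmc lies at 18.3% and 24.6% in PH and G and 51.0% in control, and Ccl5 at 71.7% and 79.9% against 50.0%.

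NK cells also varied within a library. In G and control, the libraries with enough cells, thinned filtered cells were split by whether they held a UMI of a gene, and other genes were read from the same thinned UMIs, as a description of these cells. In G the 151 cells with Gzmc had 4636 CPM of Ccl5 and 3117 of Gzma, and the 462 without it 5958 and 2618 CPM. In control the 99 cells with Gzmc had 1609 CPM of Ccl5 and 3630 of Gzma, and the 95 without it 11256 and 8884 CPM. Of 3029 genes with at least 10 UMIs in each library, 7 were at least 1.5-fold higher with Gzmc in both libraries and 8 lower, with intervals off 0. Agreement between the libraries was thus the rule by which genes were chosen, and is no separate result. The calcium-binding protein gene S100a4 was among the higher ones, at 1713 and 802 CPM in G and 1758 and 856 CPM in control. Gimap5, a GTPase gene of lymphocyte survival, was lower with Gzmc in both, at 106 and 175 CPM in G and 128 and 274 CPM in control. On the log2 scale, Ccl5 thus differed by -0.36 between cells with and without Gzmc in G and by -2.81 in control, and the difference between the libraries was not tested. In the split by Ccl5, 7 of 3029 genes were higher and 3 lower in both libraries by the same rule. Cells with Ccl5 held more Ccl4 than those without it, at 294 and 92.1 CPM in G and 481 and 61.9 CPM in control, and more Gzmb, at 1154 and 688 CPM in G and 2378 and 1203 CPM in control.

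Set against each other, filtered NK cells of G and PH did not differ by 1.5-fold in Gzmc (log2 ratio of G over PH 0.03, interval -0.15 to 0.20) or Gzmb (0.15, -0.04 to 0.35), while over all NK cells both stood higher in G (1.02 and 0.94). Gzma stood lower in G than in PH (-1.42, interval -1.50 to -1.35), as did Ccl5 (-0.86), Bcl2a1d (-1.44), Cish (-0.92) and Cd69 (-2.11). Il21r (1.26, interval 0.58 to 2.02) and Isg15 (3.55, interval 1.69 to 6.60) stood higher in G, although Isg15 had 2 UMIs in PH. Of 4801 genes measured, 21.0% were at least 1.5-fold higher in G and 12.6% lower.

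GPH held 14 NK cells, 6 of them filtered with 48364 UMIs, and its values are given without comparison. Gzma was at 3101 CPM in 5 of the 6 cells, Gzmb at 269 CPM, Gzmc at 662 CPM in 3 cells, Prf1 at 352 CPM and Ccl5 at 310 CPM in 3 cells. Xcl1 was at 3060 CPM and Nfkbia at 972 CPM. With 1 UMI worth about 20.7 CPM, none of these sets GPH apart from the others beyond what 6 cells of 1 pooled library can show.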

How the data were processed

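The 4 libraries (10x Genomics, enzymatically digested tumour, 3 animals pooled in each) were deposited by the authors as UMI counts per gene and barcode, aligned to mm10 with Cell Ranger 6.1 per the submitters' processing notes and 7.0.1 per the file headers. UMI counts were summed over NK cells of a library and scaled to CPM here. Ratios carry exact conditional binomial 95% intervals, shares exact Clopper-Pearson intervals and levels exact Poisson intervals, all for counting error only. A gene was measured at 20 CPM in either library and 20 UMIs over both, and called at 1.5-fold. With 1 library per group, no test or adjusted p was possible. A library at 0 was given a floor of 3 counts over its cells.

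The members and gene lists were chosen with earlier results of these data known, among them lower mitosis and cholesterol synthesis genes in NK cells of PH, so those are no independent support. The filtered sets were chosen after seeing the data. Named genes were the 12 each way with the interval bound farthest from 0, at 50 CPM or more, without mitochondrial, ribosomal, sex-linked and predicted genes and genes under 1/10 of their level in T cells, macrophages or barcodes with Vim; each list's largest ratios and namesakes were also named, and a few genes are not reported here. Scrublet's own threshold called 1, 0, 7 and 0 doublets in PH, G, GPH and control and so had not worked; doublets were kept, and the highest scores (0.8% per 1000 barcodes) were removed as an alternative. Libraries held 143298547 to 190110092 UMIs. Python 3.11.15, numpy 2.4.6, scipy 1.17.1 and scanpy 1.11.5 were used, and the scripts were tested on simulated data. Gene positions are GENCODE, GRCm38 (mm10). Alternatives varied the rule, the doublet and mitochondrial limits, cell weights, scaling, depth and the limits on low genes.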

Additional observations from a re-analysis of the deposited data

Results flagged for a closer look

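Some genes went at least 1.5-fold one way in filtered NK cells and at least 1.5-fold the other way in filtered T cells of the same library, each against control, and the difference between the cell types was not tested. In PH these were Klra1 (log2 ratio -1.38 in NK cells, 1.95 in T cells), an inhibitory Ly49 receptor gene with close copies whose NK ratio turned to 1.62 without cycling cells, Nfkbid (1.39, -0.82), and Tcf7 (1.05, -1.10), a transcription factor of immature lymphocytes. In G the division genes Birc5 (-0.69, 0.65), Spc24 (-0.70, 0.77), Tpx2 (-0.83, 0.74), Ube2c (-1.08, 0.86) and Tyms (-0.91, 0.75) stood lower in NK cells and higher in T cells, as did Fdps (-1.64, 0.75) of the mevalonate pathway. Cd3g (0.60, -0.80), Klra3 (0.59, -1.38) and Lilrb4a (0.76, -0.98) went the other way in G. The T cells were a mixture of subsets, and the rule that chose the NK cells used Cd3d and Cd3e but not Cd3g.

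Among barcodes with over 20% mitochondrial UMIs, which were not used, 7 of 1077 in G met the rest of the NK rule, against 1 of 1325 in control, and 2 of 961 in PH and 0 of 2212 in GPH.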

How the results depend on the processing

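No paired analysis was possible because each group is 1 library. Counts of genes at least 1.5-fold higher and lower in all NK cells were 1005 and 724 in PH and 941 and 966 in G. Those that moved by over 1.5 times were, for PH, 650 higher with at least 1 rule UMI, 631 higher and 1157 lower in filtered cells, 1309 lower in filtered cells at equal weight, 340 higher after thinning, 185 and 267 without cycling cells (181 and 262 in filtered cells), 2096 and 1639 at 5 CPM and 398 and 325 at 50 CPM. For G they were 564 lower in filtered cells, 608 higher in filtered cells at equal weight, 611 higher at equal weight, 496 and 526 without cycling cells (450 and 522 in filtered cells), 1863 and 2137 at 5 CPM and 407 and 467 at 50 CPM.

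Shares of kept barcodes, then of Ptprc-positive ones, moved with at least 1 rule UMI (PH 1.20% and 8.77%, G 7.48% and 11.5%, GPH 0.786% of kept barcodes, control 3.56% and 22.4%), with 3 (PH 0.287% and 3.31%, G 3.37% and 5.41%, control 1.91% and 14.5%), with no Cd3d, Cd3e, Cd3g or Trac (G 3.67% and 5.82%, control 1.84% and 13.9%), with no C1q UMI (G 4.62% and 7.38%), in filtered cells (PH 0.393% of kept barcodes, G 4.46% and 7.13%, GPH 0.131% and 3%, control 1.81% and 13.8%) and after thinning (PH 0.194% and 4.37%, G 2.03% and 4.10%, GPH 0.0950% of kept barcodes, control 1.09% and 12.9%).

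Log2 ratios in all NK cells changed sign for Hspb1 in PH with 3 rule UMIs (1.41 to -0.41). In filtered cells they did for Cav1 in G (-2.93 to 0.14) and, in PH, for Ccl9 (2.80 to -0.88), Cd74 (-1.28 to 0.88), Dcn (-2.12 to 2.70) and Iigp1 (-2.30 to 0.70). At equal weight in filtered cells, Ccl5 (-0.14), Cma1 (-0.22) and Sparc (0.090) turned in G and Ccl9 (-0.87), Cd74 (0.15) and Dcn (3.13) in PH. Cycling cells were counted on unthinned UMIs, and without them 22 of 80 NK cells were left in PH, 127 of 703 in G and 42 of 256 in control. Without cycling cells, Ccl5 (-0.39) and Cma1 (-0.26) turned in G and Ccl4 (-0.29), Cd74 (0.90) and Klra1 (2.60) in PH. In filtered cells Ccl5 (-0.40), Cma1 (-0.24), Ccl4 (-0.13) and Klra1 (1.62) did. The late maturation median in G was 0.63, and -0.033 in filtered cells, -0.84 without cycling ones, -0.48 at equal weight, and in all NK cells -0.13 after thinning, -0.0035 at equal weight and -0.81 without cycling cells. In all, 21 of 2386 ratios and 6 of 940 medians changed sign, and the causes were not tested.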
